A study of Homo sapiens with 15 samples.

Results

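G1 and G2 are the gap phases on either side of DNA replication, and the comparison here is between 3 RNA libraries from sorted G1 cells and 3 from sorted G2 cells of the human osteosarcoma line U2OS. The 6 libraries are those titled for G1 or G2, of 15 in the series; the others are 3 each of early S, late S and a control without alkylation. Growing cells received 4-thiouridine, which is built into new RNA, together with the thymidine analogue EdU for 45 min, were fixed with glyoxal and methanol, and were sorted by EdU signal and DNA content. From each sample 500 ng of alkylated RNA was made into 3′ end (QuantSeq FWD) libraries. The alkylated uridine analogue is read as a T-to-C (T>C) change, so that each library gives both a total and a newly made RNA profile. All groups compared received the same label, fixation and sort. The labels write G2 for the samples and G2/M in the treatment protocol, so that the sorted G2 gate may hold mitotic cells. The series title speaks of synchronised cells, whereas the protocol describes the sorting of a growing culture. Nothing in the labels says whether the replicates came from separate cultures, so the p-values measure the spread between these libraries, which may be technical. The control libraries had no alkylation, and the labels do not name their phase.

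Cells in G1 decide whether to enter a new cycle, build up cyclin E and E2F activity, and load the MCM helicase onto replication origins. Cells in G2 carry replicated DNA and build up the cyclin B, kinase, spindle and kinetochore transcripts that mitosis needs. Most of these are transcribed late in the cycle. They are controlled by the DREAM, MYBL2 and FOXM1 complexes, bound at a promoter word called the cell cycle gene homology region (CHR). E2F factors act through another word at genes of the G1-to-S transition and of replication. Both the rate of synthesis and the stability of an mRNA set its level, and only the labelled part reports on synthesis during the pulse.

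The promoters of 10 genes that the results below turn on are shown first, as 80-base stretches upstream of the annotated start, 5′ to 3′ on the gene's strand, from RefSeq on GRCh38.p14. Capitals mark the CHR core TTTGAA and the NF-Y box CCAAT in the first 7, and the E2F words TTTGGCGC, TTTCCCGC and TTCCCGCC with any NF-Y box in the last 3, all searched on both strands. The first 7 genes, CCNB2 (chr15:59105057-59105136, plus strand), PLK1 (chr16:23678800-23678879, plus), CDC20 (chr1:43358856-43358935, plus), TOP2A (chr17:40418028-40418107, minus), CDCA8 (chr1:37692433-37692512, plus), GPSM2 (chr1:108876891-108876970, plus) and SUN2 (chr22:38756090-38756169, minus), had higher RNA in G2. The last 3, CDT1 (chr16:88803705-88803784, plus), PCNA (chr20:5126662-5126741, minus) and E2F1 (chr20:33686386-33686465, minus), had a higher level of total or of new RNA in G1.
CCNB2: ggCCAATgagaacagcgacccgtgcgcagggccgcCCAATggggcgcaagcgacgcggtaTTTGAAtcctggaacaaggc
PLK1: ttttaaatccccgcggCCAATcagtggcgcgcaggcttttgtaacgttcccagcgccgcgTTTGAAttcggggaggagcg
CDC20: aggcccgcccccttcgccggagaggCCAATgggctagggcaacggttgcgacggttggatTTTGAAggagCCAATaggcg
TOP2A: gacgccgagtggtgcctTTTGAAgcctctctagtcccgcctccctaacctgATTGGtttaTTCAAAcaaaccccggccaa
CDCA8: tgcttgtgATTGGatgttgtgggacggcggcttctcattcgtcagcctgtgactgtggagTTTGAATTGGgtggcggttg
GPSM2: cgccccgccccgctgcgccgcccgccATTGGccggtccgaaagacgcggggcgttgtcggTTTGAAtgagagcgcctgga
SUN2: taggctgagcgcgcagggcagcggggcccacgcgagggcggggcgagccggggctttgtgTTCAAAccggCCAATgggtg
CDT1: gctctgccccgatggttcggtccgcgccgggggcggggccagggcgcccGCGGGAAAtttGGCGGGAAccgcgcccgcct
PCNA: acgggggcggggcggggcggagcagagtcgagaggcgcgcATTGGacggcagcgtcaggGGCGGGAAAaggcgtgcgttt
E2F1: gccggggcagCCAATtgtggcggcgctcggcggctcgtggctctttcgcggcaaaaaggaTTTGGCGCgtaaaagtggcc
In CCNB2, PLK1 and GPSM2 the CHR core lies 29, 29 and 34 bases before the start, with 1 or more NF-Y boxes further upstream. In CDCA8 the core shares its last A with an NF-Y box on the other strand. The E2F words can overlap each other by several letters, as in PCNA, where 2 of them form 1 run of 9 capitals.

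The CHR core was counted in the promoters of genes with higher RNA in either phase and of all genes tested. A promoter of 300 bases (250 before to 50 after the start) was found for 10771 of the 13755 genes tested, 10362 of them under their own name. The core was present in 198 of 1249 promoters (15.9%) of all genes called higher in G2 at steady state and in 7.81% of those called higher in G1. It was present in 89 of 301 promoters (29.6%) of genes at least 2-fold higher in G2, in 38 of 312 (12.2%) of genes at least 2-fold higher in G1 and in 9.80% of all tested genes. Over all 27305 RefSeq promoters of that length the share was 15.4%. The core together with an NF-Y box was present in 9.13% of promoters of all genes called higher in G2, in 18.9% of promoters of genes at least 2-fold higher in G2 and in 4.02% of all tested. Within the last 50 bases before the start, the core was found in 12% of the promoters of genes at least 2-fold higher in G2, against 1.49% of all tested and 1.92% of genes at least 2-fold higher in G1. Among the gene lists used below, 22 of 30 spindle promoters, 14 of 27 kinetochore promoters and 7 of 14 mitotic cyclin promoters held the core, but 1 of 21 p53 target promoters and 1 of 21 origin licensing promoters. An E2F word was present in 10 of 21 origin licensing promoters (47.6%), in 13 of 27 replication fork promoters (48.1%) and in 7.36% of all tested, with 4.61% over all RefSeq promoters. By measured difference, it was present in 8.84% of promoters of genes called higher in G1 and in 8.01% for G2. For genes at least 2-fold higher the shares were 6.09% in G1 and 4.65% in G2, both below that of all tested. These are shares of letter matches, given with no test, and a match does not show that a factor binds.

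**Figure D1:**
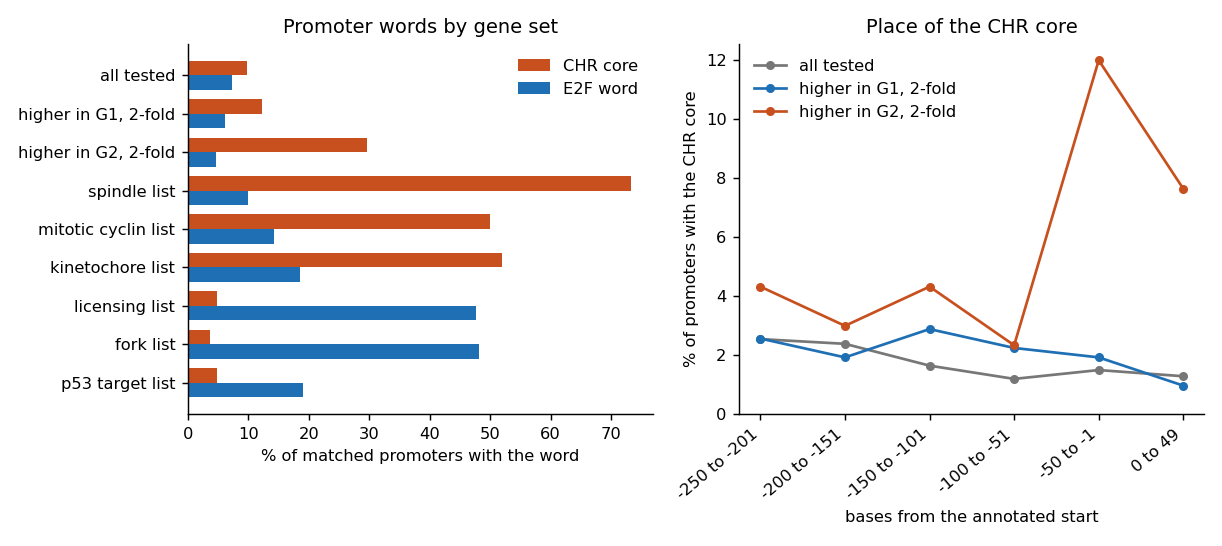
Left, percent of matched promoters (x axis) with the CHR core (orange) or any of 3 E2F words (blue) for gene sets by measured difference or by list. Right, percent of promoters (y axis) with the CHR core by its distance from the annotated start (x axis, bases) for all genes tested (grey), genes at least 2-fold higher in G1 (blue) and genes at least 2-fold higher in G2 (orange), where the orange line stands at 12% in the 50 bases before the start and the grey line at 1.49%.

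The G1 libraries carried more label than the G2 libraries. T>C reads made up 22.7%, 21.5% and 22.8% of reads in G1 and 10.2%, 9.77% and 10.4% in G2, against a mean of 1.01% without alkylation. All 3 G1 values were above all 3 G2 values, and the mean was 2.21 times as high (22.3% ± 0.740 against 10.1% ± 0.336, SD, n = 3; two-sided exact permutation p = 0.1, the smallest that 3 against 3 libraries allow). Of the thymidines read, 2.52% ± 0.120 were converted in G1 and 1.28% ± 0.0521 in G2 (n = 3 each; exact permutation p = 0.1). Reads with a change in G2 carried slightly more changes each, 2.35 ± 0.0286 against 2.07 ± 0.00995 in G1 (SD, n = 3; exact permutation p = 0.1). The control stood at 0.828, and a value below 1 shows that the columns of conversions and of T>C reads do not count the same events. The G1 libraries held 17290130 to 18104015 reads and the G2 libraries 18203510 to 21803972. T>C reads numbered 3887707 to 4037464 in G1 and 1812606 to 2274738 in G2, so that new RNA was counted less deeply in G2.

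**Figure D2:**
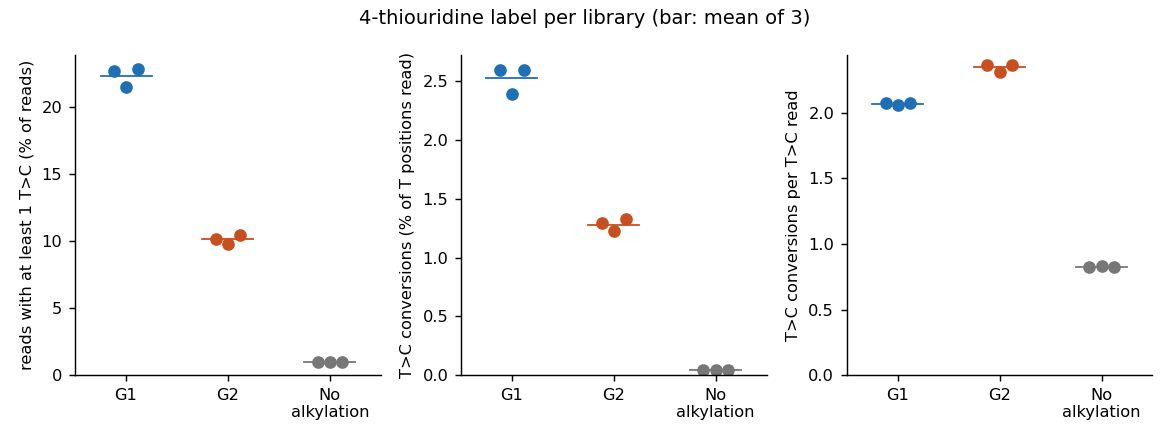
Each point is 1 library and each bar a mean of 3, for G1 (blue), G2 (orange) and the control without alkylation (grey). The y axes give the percent of reads with a T>C change, the percent of thymidines read as C and the conversions per T>C read; G1 is above G2 in the left and middle panels and below it in the right panel.

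By summed level, mesenchymal and bone markers stood far above those of other cell types. The summed level of 12 mesenchymal and bone markers was 8107 to 8249.6 CPM (read count scaled to a fixed library total) in G1 and 7273 to 7419 in G2; 11 of the 12 were detected and TWIST1 had no reads. Summed epithelial markers stood at 39.9 to 54.5 and 33.6 to 43.6, endothelial markers at 4.51 to 8.17 and 2.87 to 4.15, and blood markers at 2.37 to 3.89 and 4.28 to 6.65. Much of the mesenchymal and bone sum came from VIM (mean 3390 CPM in G1 and 2803 in G2), COL1A1 (1835 and 1699) and LGALS1 (1729 and 1644). Its members CDH11 (7.25 and 1.35) and RUNX2 (13.0 and 2.75) were low, with epithelial EPCAM at 10.5 and 9.66. The sums of the lists moved in part with phase, and their part in the results was not tested.

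Levels of all reads, here called steady-state levels, differed between G1 and G2 for 2906 of 13755 genes (21.1%). Of these, 1375 (10.0% of genes tested) were higher in G1 and 1531 (11.1%) in G2, and 418 (3.04%) and 373 (2.71%) differed by at least 2-fold. All differences below are log2 values of G1 minus G2 with their standard error (SE), so that a negative value means higher in G2. Calls were made with edgeR's quasi-likelihood test at a Benjamini-Hochberg adjusted p below 0.05 over all genes tested, and every adjusted p below is from that test unless another is named. New RNA, scaled to the T>C total of each library and given as CPM within the T>C reads (T>C CPM), differed for 837 of 11474 genes (7.29%), 333 (2.90%) higher in G1 and 504 (4.39%) higher in G2. Of these 231 (2.01%) and 274 (2.39%) differed by at least 2-fold. Leaving out the first, the second or the third G1 library gave 546, 609 or 542 calls, of which 203, 208 and 210 were higher in G1. Without high-background genes (T>C in more than 5% of at least 100 control reads) 329 were higher in G1 and 463 in G2. With plain T>C totals in place of TMM factors the split was 426 higher in G1 and 401 in G2. On this scale the overall difference in label is removed. Scaled to all reads, the median gene had 1.27 more on the log2 scale in G1, 54.0% of genes were called, 6137 (53.5%) higher in G1 and 61 (0.532%) in G2. Since CPM levels are relative, fewer cells of a kind and less RNA per cell cannot be told apart here. Nor can uptake of the label and synthesis of RNA in the overall difference in label.

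**Figure D3:**
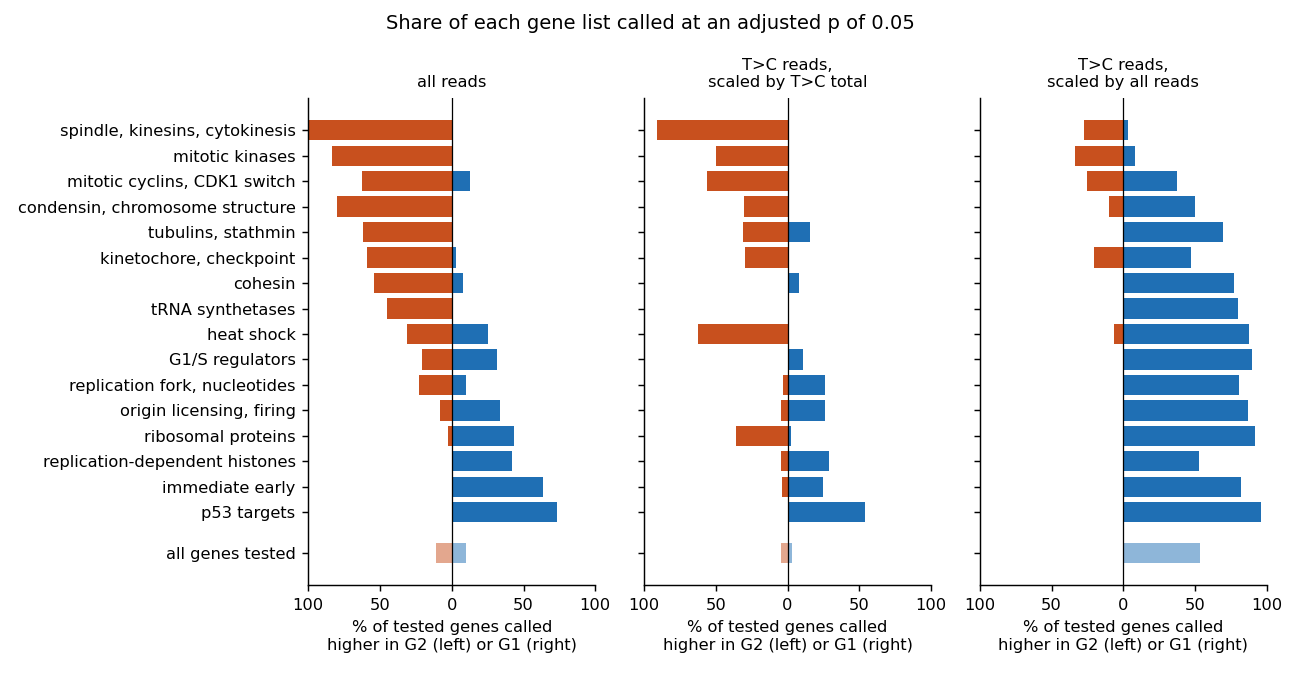
Percent of the tested genes of each list (x axis) called higher in G2 (orange, left of 0) or in G1 (blue, right of 0) at an adjusted p below 0.05, for all reads, T>C reads scaled by the T>C total and T>C reads scaled by all reads. The pale bars at the bottom give all genes tested; all 33 spindle genes were called higher in G2 by all reads.

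Most of the mitotic cyclins and of the proteins that switch on CDK1 were higher in G2. Of 16 such genes, 10 were higher in G2 and 2 in G1 at steady state (median -1.07, against 0.01 over all genes). The G1 count was 1 without G1 replicate 3. In new RNA per T>C total 9 were higher in G2 and 0 in G1 (median -1.22), the latter 1 without G2 replicate 2. Scaled by all reads 4 were higher in G2 and 6 in G1 (median 0.02), where 0.532% and 53.5% of all genes were (median 1.27). CCNB1, cyclin B1, the activator of CDK1 in mitosis, stood at 115, 128 and 149 CPM in G1 and 335, 346 and 353 in G2 (-1.40 ± 0.09, adjusted p = 5.37e-16). The gap in new CCNB1 RNA was wider, with 138, 177 and 209.9 T>C CPM in G1 and 1132, 1054 and 1059 in G2 (-2.63 ± 0.15, adjusted p = 2.15e-13; -1.39 by all reads). The groups did not overlap on either scale; over all genes tested, G2 lay wholly above G1 for 17.1% at steady state and 11.8% in new RNA. CCNB2, cyclin B2, which was chosen after its values were seen, stood at 89.1, 113 and 84.4 against 263, 226 and 233 CPM (-1.33 ± 0.10, adjusted p = 1.08e-13). CCNF, cyclin F, a substrate receptor of a ubiquitin ligase, had 194, 144 and 207 T>C CPM in G1 and 887, 850.0 and 848 in G2 (-2.24 ± 0.14, adjusted p = 1.18e-12; -0.99 by all reads). CKS2, a small subunit that docks CDK1 on its substrates, was 3.26 times as high in G2 at steady state and 4.33 times as high in new RNA (adjusted p = 1.16e-16 and 1.18e-12; -0.87 by all reads). CDC25B, a phosphatase that removes the inhibitory phosphates of CDK1, had a smaller steady-state difference (-0.88 ± 0.13) than difference in new RNA (-2.28 ± 0.25; -1.04 by all reads). CCNA2, cyclin A2, which acts from S phase into mitosis, was at 47.9, 51.9 and 47.98 CPM in G1 and 144, 161 and 135 in G2 (-1.57 ± 0.12, adjusted p = 3e-14). Its new RNA differed by -1.24 ± 0.18 per T>C total but by 0.01 by all reads.

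Mitotic kinases followed the same direction. Of 12, 10 were higher in G2 and 0 in G1 (median -1.61). In new RNA the counts were 6 and 0 (median -1.66; -0.41 by all reads). PLK1, the kinase that drives mitotic entry and spindle assembly, had 68.8, 62.6 and 50.1 CPM in G1 and 269, 219 and 238 in G2 (-2.0 ± 0.12, adjusted p = 2.36e-17). Its new RNA was 75.5, 90.7 and 69.1 against 449.5, 414 and 437 T>C CPM (-2.47 ± 0.17, adjusted p = 1.59e-11; -1.23 by all reads). No G1 library reached a G2 library. AURKA, the kinase of centrosomes and spindle poles, had 62.6, 43.6 and 46.7 CPM in G1 and 238, 223 and 229 in G2 (-2.18 ± 0.12, adjusted p = 1.52e-18). NEK2, which separates centrosomes, had 14.9, 21.5 and 19.9 against 109, 105 and 114 CPM, 5.81 times as high in G2 (adjusted p = 1.24e-17). New NEK2 RNA was at 28.6, 47.8 and 34.7 against 241, 247 and 276 T>C CPM (-2.78 ± 0.23; -1.56 by all reads). AURKB, the kinase of the chromosomal passenger complex, was at 70.3, 79.8 and 74.9 CPM in G1 and 190.1, 178 and 207 in G2 (-1.35 ± 0.10, adjusted p = 3e-14).

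All 33 tested genes of the spindle, of kinesins and of cytokinesis were higher in G2 at steady state, where 11.1% of genes were, with values from -2.81 to -0.72 (median -1.58). In new RNA 30 of 33 were higher in G2 (median -1.59), and by all reads 9 were higher in G2 and 1 in G1, the latter 0 without G1 replicate 2 (median -0.34). TPX2, which carries Aurora A to spindle microtubules, had 162, 143 and 138 CPM in G1 and 497, 462 and 444 in G2 (-1.66 ± 0.08, adjusted p = 8.9e-20). KPNA2, an importin that holds spindle factors inactive in the nucleus, had 381, 403 and 387 CPM in G1 and 1023, 1033 and 1041 in G2 (-1.40 ± 0.06, adjusted p = 7.52e-21), although 30.4% of its reads mapped to several places. KIF2C, a kinesin that takes microtubules apart at kinetochores, was at 65.3, 72.4 and 63.2 CPM in G1 and 233, 235 and 245 in G2 (-1.83 ± 0.10, adjusted p = 4.36e-18). ANLN, the anillin scaffold of the contractile ring, was 3.42 times as high in G2 at steady state (-1.78 ± 0.10, adjusted p = 1.61e-17) and its new RNA differed by -1.31 ± 0.21 (-0.08 by all reads). For KIF20A, a kinesin of the central spindle, the difference was larger in new than in total RNA. Its steady-state level was 46.7, 47.7 and 39.6 CPM in G1 and 88.5, 107 and 106 in G2 (-1.17 ± 0.14, adjusted p = 7e-09). New KIF20A RNA stood at 18.6, 14.1 and 11.6 against 175, 119 and 224 T>C CPM (-3.55 ± 0.28, adjusted p = 3.83e-10; -2.32 by all reads). FAM83D, which brings casein kinase to the spindle, behaved likewise, with 76, 97.1 and 102 T>C CPM in G1 and 759.8, 608 and 774 in G2 (-2.96 ± 0.16, adjusted p = 1.7e-13; -1.73 by all reads) and a steady-state difference of -1.94 ± 0.15. GPSM2, which links the cell cortex to the spindle motor dynein and was in no list, had 9.13, 10.3 and 9.97 CPM in G1 and 56.8, 54.4 and 66.6 in G2 (-2.60 ± 0.21, adjusted p = 3.02e-13).

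**Figure D4:**
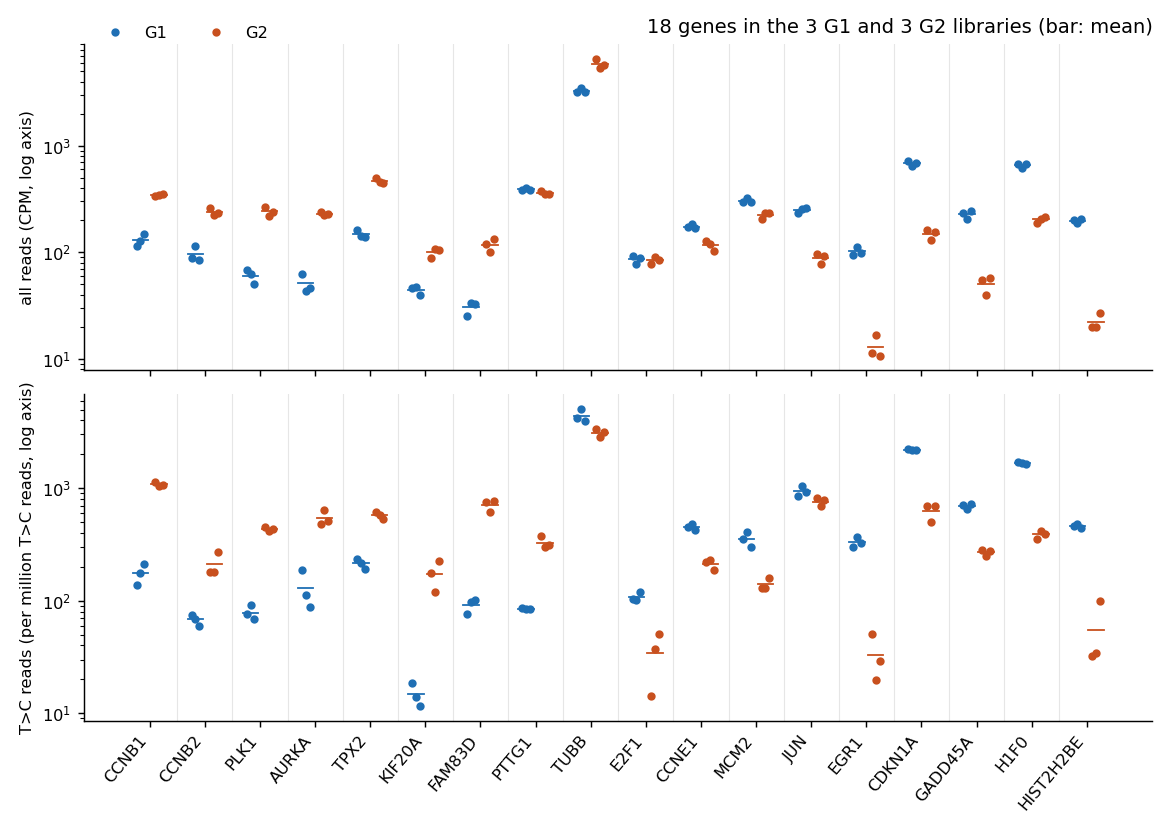
Level of 18 genes (x axis) in each of the 3 G1 (blue) and 3 G2 (orange) libraries, with bars at the means, on log axes; the upper panel gives CPM of all reads and the lower panel T>C CPM. TUBB and PTTG1 show the phases in another order or spacing in the lower panel than in the upper, and JUN nearly closes the gap that it shows above. The lower panel is scaled by T>C totals, which removes the overall difference in label.

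Genes for the proteins that build kinetochores and watch their attachment were more often higher in G2 than in G1 at steady state. Of 34 genes, 20 were higher in G2 and 1 in G1 at steady state (median -0.60). In new RNA per T>C total 10 were higher in G2 and 0 in G1 (median -0.37), the latter 1 without G2 replicate 2 or G2 replicate 3. By all reads 7 were higher in G2, 4 without G1 replicate 1 or G1 replicate 2, and 16 in G1 (median 0.87). Among all genes tested on that scale, 0.532% were higher in G2 and 53.5% in G1 (median 1.27). CENPF, a large protein of the outer kinetochore, had 34.1, 35.3 and 46.6 CPM in G1 and 136, 140.4 and 131 in G2 (-1.81 ± 0.12, adjusted p = 2.51e-15). CDCA8, borealin of the chromosomal passenger complex, had 37.5, 37.1 and 37.8 CPM in G1 and 146, 118 and 143 in G2 (-1.86 ± 0.13, adjusted p = 1.01e-14). New CDCA8 RNA was at 96.1, 90.2 and 95.7 T>C CPM in G1 and 326, 321 and 423 in G2 (-1.92 ± 0.21; -0.69 by all reads). HJURP, the chaperone that places the centromeric histone CENP-A, differed by -1.09 ± 0.15 at steady state and by -2.06 ± 0.20 in new RNA (adjusted p = 2.09e-07 and 1.84e-08; -0.84 by all reads). BIRC5, survivin, differed by -0.48 ± 0.07 at steady state (417, 406 and 409 against 574, 577 and 568 CPM) and by -1.55 ± 0.14 in new RNA (adjusted p = 2.63e-07 and 3.14e-09; -0.30 by all reads).

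The anaphase-promoting complex and its substrates differed at steady state for some members only. Of 21 genes, 9 were higher in G2 and 1 in G1 (median -0.34), with 5 and 0 of 20 in new RNA (median -0.21), where the G1 count was 1 without G2 replicate 3. By all reads 2 were higher in G2, 1 without G1 replicate 1, G1 replicate 2 or G2 replicate 3, and 9 in G1 (median 1.04). On that scale 0.532% of all genes were higher in G2 and 53.5% in G1 (median 1.27). CDC20, the activator in mitosis, had 281, 241 and 273 CPM in G1 and 527, 522 and 579 in G2 (-1.03 ± 0.08, adjusted p = 2.44e-13), with 23.6% of reads mapping to several places. UBE2C, which starts the ubiquitin chains, had 60.6, 75.99 and 61 CPM in G1 and 256, 256 and 233 in G2 (-1.91 ± 0.11, adjusted p = 3.31e-18). CDC27, a core subunit, differed by -0.92 ± 0.09 (adjusted p = 2.02e-11). PTTG1, securin, the inhibitor of separase, showed no call at steady state, with 387, 399.5 and 385 CPM in G1 and 379, 356 and 353 in G2 (0.11 ± 0.08, adjusted p = 0.373). Its new RNA was 86.6, 83.6 and 84.5 against 374, 299 and 310.2 T>C CPM (-1.95 ± 0.17, adjusted p = 2.02e-09; -0.71 by all reads). The new RNA of the 3 G2 libraries lay above all 3 G1 libraries on both scales.

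Chromosome and nuclear envelope genes had more calls toward G2 at steady state than in new RNA. So did all genes tested, with 11.1% at steady state and 4.39% in new RNA per T>C total. Of 10 genes of condensin and chromosome structure 8 were higher in G2 and 0 in G1 (median -0.57). In new RNA the counts were 3 and 0 (median -0.43), and by all reads 1 and 5 (median 0.80). The G2 count by all reads was 0 without high-background genes. TOP2A, the topoisomerase that untangles sister DNA, had 33.9, 44.6 and 26.96 CPM in G1 and 220.4, 214 and 187 in G2, 5.88 times as high (-2.56 ± 0.13, adjusted p = 5.22e-19). NCAPD2, a condensin I subunit, had 123, 168 and 115 CPM in G1 and 345, 410.1 and 416 in G2 (-1.53 ± 0.10, adjusted p = 1.35e-15). Of 13 cohesin genes 7 were higher in G2 and 1 in G1, against 0 and 1 in new RNA (median -0.39 and 0.07), where the G2 count was 1 without G1 replicate 2. By all reads 0 were higher in G2 and 10 in G1 (median 1.34). Of 25 nuclear envelope genes 10 were higher in G2, 5 without the first G1 library, and 1 in G1, with 2 and 0 in new RNA (median -0.39 and 0.09). In new RNA the G2 count was 1 without G1 replicate 1, G2 replicate 1 or G1 replicate 3, and the G1 count was 1 without G2 replicate 3. By all reads 1 was higher in G2 and 17 in G1 (median 1.34). Without high-background genes the G2 count was 1 in new RNA per T>C total and 0 by all reads. SUN2, which ties the inner nuclear membrane to the cytoskeleton, stood apart, with 7.10, 13.5 and 12.96 CPM in G1 and 70.3, 84.9 and 79.8 in G2 (-2.81 ± 0.19, adjusted p = 1.88e-15). New SUN2 RNA was at 7.32, 15.6 and 13.3 against 127, 145 and 162 T>C CPM (-3.58 ± 0.35; -2.35 by all reads). Without alkylation 5.30% of its reads carried T>C. LBR, the lamin B receptor, was at 51.5, 60.3 and 58.4 CPM in G1 and 157, 153 and 148 in G2 (-1.43 ± 0.11, adjusted p = 2.42e-13). Its new RNA differed by -0.54 ± 0.27, which was not called (0.71 by all reads). Of 16 centrosome genes 7 were higher in G2 and 1 in G1, the latter 0 without G1 replicate 2, G2 replicate 2 or G2 replicate 3 (median -0.36). Of the 12 genes of FOXM1, MYBL2 and DREAM themselves 2 were higher in G2 and 0 in G1 (median -0.09).

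Tubulin genes differed in direction between all reads and T>C reads for some members. Of 13 tubulin and stathmin genes 8 were higher in G2 and 0 in G1 at steady state (median -0.36), the latter 2 without G1 replicate 2. In new RNA 4 were higher in G2 and 2 in G1 (median -0.40), and by all reads 0 and 9 (median 0.82). TUBB, a main beta tubulin, had 3216, 3469.9 and 3199 CPM in G1 and 6552, 5354 and 5727 in G2 (-0.83 ± 0.05, adjusted p = 2.28e-17), with 21.3% of reads mapping to several places. Its new RNA ran the other way, at 4162, 5045 and 3942 T>C CPM in G1 and 3335, 2836 and 3174 in G2 (0.49 ± 0.08, adjusted p = 8.92e-05; 1.72 by all reads). The groups did not overlap on either scale. TUBB4B, another beta tubulin, was higher in G2 in both, by -0.79 ± 0.07 at steady state and by -1.28 ± 0.09 in new RNA (adjusted p = 6.68e-13 and 2.91e-11), with -0.04 by all reads. TUBA1B, an alpha tubulin, was at 3732, 3832 and 3614 CPM in G1 and 6046, 5635 and 5918 in G2 (-0.65 ± 0.04, adjusted p = 8.84e-16).

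Most targets of p53 were higher in G1. Of 26 p53 targets 19 were higher in G1 and 0 in G2 at steady state (median 1.13), where 10.0% of all genes were higher in G1, and 14 and 0 in new RNA (median 1.11; 2.35 by all reads). CDKN1A, p21, which holds CDK2 inactive in G1 and is induced by p53, had 714, 641 and 691 CPM in G1 and 162, 131 and 155 in G2 (2.19 ± 0.08, adjusted p = 5.91e-23). New CDKN1A RNA stood at 2243, 2185 and 2175 T>C CPM against 694, 498 and 691 (1.81 ± 0.11, adjusted p = 8.78e-13; 3.05 by all reads). GADD45A, a stress sensor, had 234, 203 and 247 CPM in G1 and 54.5, 40.1 and 56.9 in G2 (2.17 ± 0.12, adjusted p = 1.05e-17). PMAIP1, the BH3-only protein NOXA, was 3.22 times as high in G1 and SESN2, a sestrin that restrains mTORC1, 2.99 times (adjusted p = 8.99e-15 and 2.05e-11). In each of these 4 genes every G1 library exceeded every G2 library. Over all genes tested this was so for 18.1% at steady state and for 13.8% in new RNA. Apart from CDKN1A, set by name, they were picked by small p or large difference, so nothing is read from their lack of overlap. The 5 inhibitors of cyclin-dependent kinases did not share a direction: 2 were higher in G1, 1 without G2 replicate 1, G2 replicate 2 or G1 replicate 3, and 1 in G2. CDKN2C, the CDK4 and CDK6 inhibitor p18, was at 12.2, 13.8 and 10.4 CPM in G1 and 24.9, 34.3 and 28.3 in G2 (-1.26 ± 0.21, adjusted p = 1.63e-05). CDKN1B, p27, was not called at steady state (-0.54 ± 0.21, adjusted p = 0.064). Its new RNA was 46.3, 33.5 and 46.3 T>C CPM in G1 and 114, 109 and 146 in G2 (-1.55 ± 0.28, adjusted p = 0.000335; -0.30 by all reads).

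Immediate early genes, which respond within minutes to growth signals, were more often higher in G1 than in G2 at steady state. Of 30, 19 were higher in G1 and 0 in G2 (median 1.45). In new RNA per T>C total 7 of 28 were higher in G1 and 1 in G2 (median 0.48; 1.73 by all reads). On that scale 2.90% of all genes tested were higher in G1 and 4.39% in G2. EGR1, a zinc finger transcription factor, had 94.04, 113 and 99.02 CPM in G1 and 11.4, 16.6 and 10.7 in G2 (2.98 ± 0.17, adjusted p = 9.8e-18). New EGR1 RNA was at 299, 364 and 326 against 50.1, 19.8 and 28.9 T>C CPM (3.32 ± 0.25; 4.55 by all reads). ATF3, a stress-induced bZIP factor, was 10.03 times as high in G1 at steady state (50.4, 61.5 and 53.3 against 3.77, 6.27 and 6.38 CPM, adjusted p = 2.6e-16). MYC differed by 1.58 ± 0.18 at steady state and by 1.52 ± 0.24 in new RNA (adjusted p = 8.06e-09 and 8.76e-05; 2.76 by all reads). For JUN, an AP-1 subunit, the phases differed at steady state, at 235, 257 and 263 CPM in G1 and 95.6, 77.4 and 93.03 in G2 (1.50 ± 0.10, adjusted p = 3.51e-15). New JUN RNA was not called per T>C total, at 844, 1036 and 927 against 818, 688 and 777 T>C CPM (0.30 ± 0.11, adjusted p = 0.117; 1.53 by all reads). IER3, a short-lived survival factor, showed the same order, with a steady-state difference of 1.69 ± 0.08 and a difference in new RNA of 0.51 ± 0.08 (adjusted p = 2e-20 and 3.47e-05; 1.75 by all reads).

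A part of the histone transcripts was higher in G1. Most replication-dependent histone mRNA ends in a stem loop without a poly(A) tail, so that libraries primed on poly(A) hold only a part of it. Of 26 tested genes 11 were higher in G1 and 0 in G2 (median 1.72). In new RNA the counts were 6 and 1 of 21 (median 1.32; 2.51 by all reads). HIST2H2BE, an H2B gene known to be polyadenylated, had 202, 187 and 205 CPM in G1 and 20.1, 20.1 and 26.7 in G2 (3.15 ± 0.15, adjusted p = 4.63e-20). HIST1H2BJ had 319, 342 and 312 CPM in G1 and 81.3, 68.5 and 71.6 in G2 (2.13 ± 0.10, adjusted p = 7.72e-20). H1F0, the linker histone of cells that leave the cycle, had 681, 624 and 675 CPM in G1 and 189, 206 and 216 in G2 (1.70 ± 0.08, adjusted p = 3.39e-20). New H1F0 RNA was at 1710.2, 1658 and 1635 against 353, 418 and 394 T>C CPM (2.10 ± 0.11, adjusted p = 9.13e-14; 3.35 by all reads). H2AFX, the variant marked at DNA breaks, went the other way, at 158, 162 and 167 CPM in G1 and 280.4, 329 and 297 in G2 (-0.90 ± 0.09, adjusted p = 5.58e-11).

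Among regulators of the step from G1 into S, 6 of 19 genes were higher in G1, 3 without the first G1 library, and 4 in G2, with a median of 0.05. In new RNA the counts were 2 and 0 (median 0.26; 1.50 by all reads), the former 1 without G1 replicate 3. Of all genes tested, 10.0% were higher in G1 and 11.1% in G2 at steady state, and 2.90% and 4.39% in new RNA. CCNE1, cyclin E1, which starts S phase with CDK2, had 171, 183 and 168 CPM in G1 and 127, 119 and 102 in G2 (0.58 ± 0.10, adjusted p = 1.42e-05). New CCNE1 RNA was at 456, 481 and 423 against 223, 228 and 186 T>C CPM (1.09 ± 0.15, adjusted p = 7.21e-06; 2.34 by all reads). E2F1, which drives CCNE1 and many replication genes, had overlapping steady-state levels in both phases, 92.6, 78.3 and 88.2 CPM in G1 and 77.2, 91.3 and 84.7 in G2 (0.03 ± 0.11, adjusted p = 0.888). New E2F1 RNA stood at 104, 101 and 120.4 T>C CPM in G1 and 14.3, 37.3 and 50.3 in G2 (1.67 ± 0.41, adjusted p = 0.00855; 2.91 by all reads). That call was lost without the third G1 library (1.59, adjusted p = 0.0518). CCND1, cyclin D1, which couples growth signals to CDK4 and CDK6, was not called on either scale (0.05 ± 0.07 and -0.07 ± 0.10).

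Replication genes were split at steady state and, where called in new RNA, mostly higher in G1. Of 24 origin licensing and firing genes 8 were higher in G1 and 2 in G2 at steady state (median 0.14). In new RNA the counts were 6 and 1 of 23 (median 0.67; 1.90 by all reads), with 1 higher in G1 without the second G1 library, 3 without the first and 3 without the third G2 library. MCM2, a subunit of the replicative helicase, was at 295, 322 and 295 CPM in G1 and 205, 233 and 233 in G2 (0.44 ± 0.08, adjusted p = 4.96e-05). Its new RNA was at 349.8, 406 and 303 against 130.4, 129 and 160.2 T>C CPM (1.33 ± 0.20, adjusted p = 3.21e-05; 2.56 by all reads). CDT1, the factor that loads the helicase, had 194, 202 and 180.1 CPM in G1 and 118, 119 and 121 in G2 (0.69 ± 0.09, adjusted p = 2.79e-07). DBF4, the activator of the firing kinase CDC7, had more new RNA in G2 (-1.48 ± 0.20, adjusted p = 6.32e-06; -0.23 by all reads). Of 31 replication fork and nucleotide genes 3 were higher in G1 and 7 in G2 at steady state, the latter 2 without the first G1 library. In new RNA 8 were higher in G1 and 1 in G2, the latter 0 without high-background genes (median -0.05 and 0.58, with 1.82 by all reads). The shares over all genes tested were 10.0% in G1 and 11.1% in G2 at steady state. In new RNA per T>C total they were 2.90% and 4.39%. The 3 of 31 fork genes higher in G1 at steady state lie near the share of all genes. PCNA, the sliding clamp of DNA polymerase, was higher in G1 in both, with 227, 252 and 231 against 133, 135 and 125 CPM (0.86 ± 0.10, adjusted p = 2.09e-08) and 1.05 ± 0.18 in new RNA. FEN1, the flap nuclease of Okazaki fragments, differed by 0.36 ± 0.08 at steady state and by 0.91 ± 0.13 in new RNA (adjusted p = 0.000469 and 2.73e-05). TYMS, thymidylate synthase, had 700.3, 763 and 705 T>C CPM in G1 and 318, 325 and 386 in G2 (1.07 ± 0.13, adjusted p = 1.87e-06). Its steady-state levels were 708, 691 and 749.5 CPM in G1 and 811, 807 and 831 in G2. The difference was -0.19 ± 0.06, and its call (adjusted p = 0.0202) was lost without the first or the second G1 or the third G2 library (-0.18, -0.16 and -0.18). ESCO2, the acetyltransferase that ties sister chromatids during S phase, had more total RNA in G2, 40.03, 34.9 and 34.2 against 56.1, 60.1 and 48.9 CPM (-0.60 ± 0.15, adjusted p = 0.00388). It had more new RNA in G1, 92.8, 57.5 and 83.1 against 20.9, 15.3 and 17.8 T>C CPM (2.11 ± 0.39, adjusted p = 0.000546; 3.36 by all reads).

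Of 83 cytosolic ribosomal protein genes 36 were higher in G1 and 2 in G2 at steady state (median 0.12), the latter 1 without G1 replicate 3 or G2 replicate 3. In new RNA per T>C total 2 were higher in G1, 1 without G1 replicate 1, G2 replicate 1, G1 replicate 2, G1 replicate 3 or G2 replicate 3, and 30 in G2, 18 without the third G1 library and 18 with plain T>C totals (median -0.29; 0.95 by all reads, with 76 higher in G1). RPS24 was at 3307, 2728 and 3306 CPM in G1 and 2284, 2260.1 and 2329 in G2 (0.44 ± 0.06, adjusted p = 2.37e-07). Its new RNA was not called per T>C total (0.12 ± 0.10). Of 20 tRNA synthetase genes 9 were higher in G2 and 0 in G1, and in new RNA 0 and 0, the former 1 without G2 replicate 2 or G2 replicate 3 (median -0.23 and -0.01; 1.24 by all reads). At steady state 11.1% of all genes tested were higher in G2 and 10.0% in G1, and in new RNA 4.39% and 2.90%. CARS, the cysteine enzyme, was at 112, 103 and 92.4 CPM in G1 and 180.0, 208 and 186 in G2 (-0.90 ± 0.09, adjusted p = 4.94e-10). PSAT1 of serine synthesis and SLC7A11, the cystine importer, both targets of ATF4, were 3.996 and 4.22 times as high in G2 at steady state (adjusted p = 6.89e-17 and 5.37e-15), with new RNA not called (-0.79 ± 0.33 and -0.96 ± 0.50). Over the 23 genes of that list 5 were higher in G1, 3 without the second G1 and 3 without the first G2 library, and 8 in G2.

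Heat shock genes had 4 members higher in G1, 2 without the third G1 and 2 without the third G2 library, and 5 in G2 of 16. In new RNA 10 were higher in G2 and 0 in G1 (median -0.54; 0.70 by all reads). All genes tested had shares of 10.0% in G1 and 11.1% in G2 at steady state, and of 2.90% and 4.39% in new RNA. HSPA1A, inducible HSP70, was at 136, 140.1 and 139.6 CPM in G1 and 357, 305 and 371 in G2 (-1.31 ± 0.09, adjusted p = 1.35e-15). Its new RNA differed by -1.60 ± 0.12 (-0.37 by all reads). Of 20 YAP and SRF targets 6 were higher in G1 and 8 in G2, and in new RNA 2 and 10, the latter 6 without the first G1 library (median -0.09 and -0.43; 0.82 by all reads). ANKRD1, a YAP target, was at 1182, 1065 and 1256 CPM in G1 and 370.2, 327 and 347 in G2 (1.75 ± 0.09, adjusted p = 1.83e-19). AMOTL2, another, had 280.0, 274 and 318 against 251, 192 and 219.5 CPM (0.40 ± 0.09, adjusted p = 0.000909). New AMOTL2 RNA was at 1059, 1140.1 and 1173 against 2323, 1809 and 1926 T>C CPM (-0.85 ± 0.09, adjusted p = 1.06e-07; 0.40 by all reads). ID1, an inhibitor of bHLH factors downstream of BMP signals, showed that same pair of signs (0.36 ± 0.07 and -0.81 ± 0.07, adjusted p = 0.000113 and 5.86e-09; 0.43 by all reads). MCL1, a short-lived survival factor, did too (0.60 ± 0.09 and -0.55 ± 0.09, with 0.69 by all reads). In AMOTL2, ID1 and MCL1 the signs differed only per T>C total, and by all reads new RNA had the sign of the steady-state level. GAPDH and ACTB, common reference genes, were not called at steady state (-0.03 ± 0.04 and 0.00 ± 0.04), while per T>C total their new RNA was higher in G2 (-0.35 ± 0.08 and -0.63 ± 0.07) and by all reads higher in G1 (0.90 and 0.61). Of ACTB reads 77.2% mapped to several places.

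The other 15 lists are given here by their counts at steady state, in the order higher in G1, higher in G2 and tested, with the median log2 difference (G1 minus G2) and the counts with 1 library left out where these moved by more than 1.5 times. Over all genes tested, 10.0% were higher in G1 and 11.1% in G2 at steady state (median 0.01), and several of these lists lie near those shares. Matrix and adhesion genes, whose products hold cells to their surroundings, had 10 and 1 of 24 (median 0.35), and the G2 count was 0 without G1 replicate 1 or G2 replicate 1. Targets of TGF-beta and BMP signals had 4 and 1 of 14 (median 0.18). SR and hnRNP proteins, which bind pre-mRNA, had 13 and 4 of 35 (median 0.16). Subunits of the respiratory chain had 14 and 4 of 76 (median 0.11), and the G2 count was 2 without G1 replicate 3. Proteasome subunits had 8 and 4 of 34 (median 0.03). Mitochondrial ribosomal proteins had 9 and 7 of 72 (median -0.04), and the G1 count was 3 without G2 replicate 2, 4 without G2 replicate 1 or G1 replicate 3 and 5 without G1 replicate 1 or G2 replicate 3, and the G2 count was 4 without G1 replicate 2 or G2 replicate 2. Ribosome biogenesis factors had 8 and 5 of 31 (median 0.03), and the G1 count was 5 without G1 replicate 1 or G2 replicate 2. Subunits of RNA polymerase II and Mediator had 5 and 4 of 42 (median -0.07), and the G2 count was 2 without G2 replicate 2 or G1 replicate 3. Homologous recombination genes had 3 and 3 of 20 (median -0.07), and the G1 count was 1 without G1 replicate 3. Enzymes of cholesterol synthesis had 6 and 4 of 22 (median -0.21), and the G1 count was 2 without G1 replicate 1 and 3 without G2 replicate 3, and the G2 count was 1 without G1 replicate 1 or G2 replicate 1 and 2 without G1 replicate 2 or G1 replicate 3. NF-kB and interferon targets had 7 and 5 of 18 (median 0.66), and the G1 count was 3 without G1 replicate 3. Enzymes of glycolysis had 0 and 3 of 21 (median 0.07), and the G1 count was 3 without G1 replicate 2, and the G2 count was 1 without G2 replicate 1. Apoptosis genes had 3 and 2 of 16 (median 0.07), and the G2 count was 0 without G1 replicate 3 and 1 without G1 replicate 1 or G2 replicate 1 or G2 replicate 2. The MYC network had 1 and 2 of 9 (median 0.25), and the G1 count was 2 without G2 replicate 1. Replacement histones had 2 and 1 of 11 (median 0.03), and the G1 count was 1 without G1 replicate 1 or G2 replicate 3. In new RNA per T>C total, 2 of 14 TGF-beta and BMP targets were higher in G1, 1 without G1 replicate 1, and 4 in G2. Of 35 SR and hnRNP genes 4 were higher in G1 on that scale and 1 in G2. There the G1 count was 0 without G1 replicate 2, 1 without G1 replicate 1 and 2 without G2 replicate 1, G2 replicate 2 or G1 replicate 3, and the G2 count was 0 without G1 replicate 1 or G2 replicate 1. On the same scale 2.90% of all genes tested were higher in G1 and 4.39% in G2.

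By all reads most genes had more T>C reads in G1, where uptake of the label and synthesis of RNA cannot be told apart. The 61 genes with more new RNA in G2 on that scale include TNFAIP8L1, a member of the TNFAIP8 family, with 1.52, 0.877 and 1.21 T>C CPM of all reads in G1 and 24.6, 17.1 and 27.4 in G2 (-4.25 ± 0.34, adjusted p = 2.58e-10). Its steady-state level was 14.7, 19.8 and 9.33 CPM in G1 and 92.4, 83.1 and 81.5 in G2 (-2.55 ± 0.19, adjusted p = 1.71e-14). SAPCD2, a regulator of spindle orientation, had 1.75, 1.37 and 6.34 against 14.96, 19.8 and 24.04 T>C CPM of all reads (-2.64 ± 0.41, adjusted p = 1e-05) and a steady-state difference of -1.23 ± 0.16. PIF1, a DNA helicase, differed by -2.38 ± 0.34 and DNMT3B, a DNA methyltransferase, by -2.42 ± 0.67 on this scale (adjusted p = 2.64e-06 and 0.00407). GPSM2 differed by -3.13 ± 0.68, SUN2 by -2.35 ± 0.36, KIF20A by -2.32 ± 0.31 and CCNB1 by -1.39 ± 0.15. LGALS1, galectin-1, was an abundant member of the group. At steady state it stood at 1855, 1693 and 1639 CPM in G1 and 1662, 1636 and 1636 in G2 with no call (0.07 ± 0.05). Its new RNA was 122, 110.4 and 117 against 176, 184 and 173 T>C CPM of all reads (-0.61 ± 0.09, adjusted p = 4.03e-06). The rule for naming genes asked for no overlap between the phases among the largest differences, so nothing is read from the lack of overlap here. Over all genes tested on this scale, G2 lay wholly above G1 for 0.750% and G1 above G2 for 64.5%.

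**Figure D5:**
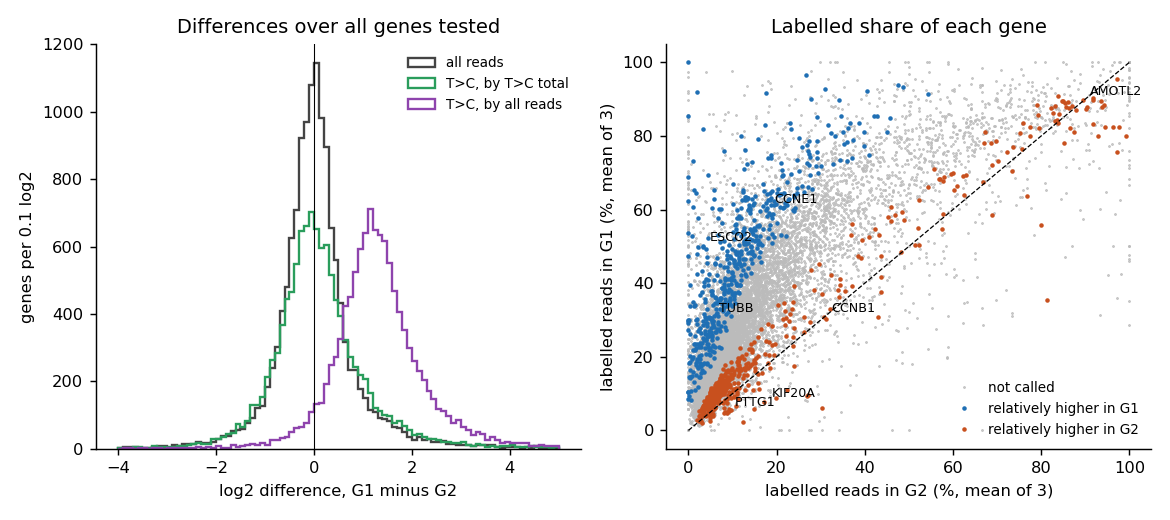
Left, number of genes per 0.1 log2 (y axis) by difference of G1 minus G2 (x axis) for all reads (dark), T>C reads by T>C total (green) and T>C reads by all reads (purple), whose median lies at 1.27. Right, mean labelled share of each gene in G2 (x axis, %) and G1 (y axis, %), with genes called relatively higher in G1 (blue) or G2 (orange) and the line of equal shares (dashed); most genes lie above the line.

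The labelled share of a gene, the percent of its reads with a T>C change, puts new and total RNA into 1 value. Its median over 11467 genes was 28.93% in G1, 10.38% in G2 and 0.5% without alkylation. In 7999 genes (69.8%) every G1 library lay above every G2 library, and in 58 (0.506%) below. Relative to the bulk of the reads, 1002 genes (8.74%) departed, 505 (4.40%) toward G1 and 497 (4.33%) toward G2. Without the first, the second or the third G1 library the totals were 648, 708 and 643, with 283, 291 and 299 toward G1. ESCO2 had 55.4, 35.3 and 58.9% labelled reads in G1 and 3.70, 2.35 and 3.72% in G2, which is 3.33 ± 0.49 on the log2 scale relative to the bulk (adjusted p = 4.39e-05). CCNE1 had 63.6, 56.4 and 61.3% and 17.4, 17.8 and 18.7% (1.24 ± 0.19, adjusted p = 6.61e-05). TUBB had 30.9, 31.2 and 29.9% and 5.05, 4.89 and 5.67% (1.44 ± 0.07, adjusted p = 1.02e-12). At the other end KIF20A had 9.53, 6.32 and 7.13% in G1 and 19.6, 10.3 and 21.7% in G2 (-2.85 ± 0.34, adjusted p = 1.99e-06). PTTG1 had 5.34, 4.49 and 5.33% and 9.80, 7.77 and 8.998% (-2.44 ± 0.17, adjusted p = 2.95e-10). LGALS1 had 6.60, 6.52 and 7.16% and 10.6, 11.2 and 10.6% (-2.31 ± 0.10, adjusted p = 1.02e-13). TNFAIP8L1 had 10.4, 4.42 and 12.96% and 26.6, 20.6 and 33.6% (-3.52 ± 0.37, adjusted p = 3.27e-07). CCNB1 had nearly equal shares, 28.6, 29.6 and 34.1% in G1 and 33.6, 28.1 and 30.7% in G2, which is -1.57 ± 0.17 relative to the bulk (adjusted p = 3.84e-07). The share was high in both phases for AMOTL2 (89.7% in G1 and 89.5% in G2), JUN (85.9% and 84.1%) and IER3 (88.9% and 85.4%). Of 83 ribosomal protein genes 69 were relatively higher in G2 and 1 in G1, measured against the bulk. With both kinds of reads scaled by total reads, which keeps the overall difference in label, 74 were higher in G1 and 0 in G2. RPS24 itself had a higher labelled share in G1, 6.82, 7.10 and 6.79% against 3.87, 3.22 and 3.83% in G2.

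Between G1 and G2, a few genes had almost all of their reads in G1, with early and late S not considered here. KRT75, a keratin of hair follicles, had 55.5, 62.4 and 62.8 CPM in G1 and 1.64, 1.88 and 1.59 in G2 (5.14 ± 0.33, adjusted p = 3.47e-16). Its T>C reads numbered 944 over the 3 G1 libraries and 0 over the 3 G2 libraries, which makes new RNA at least 148-fold higher in G1 when 3 counts over the group are taken as the floor. SLITRK6, a membrane protein of neurons and inner ear, had 12.3, 16.6 and 17.3 CPM in G1 and no read in G2, at least 305-fold higher in G1 by the same floor (adjusted p = 3.33e-10). With no read in G2, it passed the count filter only through other groups, so nothing is read from its adjusted p. Whether such a gene comes from all G1 cells or from a few cannot be read from bulk libraries.

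Few genes were called for a difference in the use of alternative 3′ end regions, which does not show that such use was equal. Of 4171 genes with several regions 7 were called (0.168%) by edgeR's diffSpliceDGE with gene-level Simes p-values. Leaving out the first, the second or the third G1 library gave 0, 18 or 1 called genes, and leaving out the second G2 library 3. PTMA, prothymosin alpha, on chromosome 2, had 13.03%, 9.34% and 12.7% of its reads in G1 and 5.30%, 6.90% and 7.27% in G2 in the region at hg38 chr2:231712443-231712516, upstream of its last region (adjusted p = 0.00248 for the gene). That call was lost without the first or the third G1 or the first G2 library. TROAP, a spindle protein, had 44.7%, 41.7% and 55.9% of reads in G1 and 20.5%, 16.3% and 23.7% in G2 in its upstream region at chr12:49323768-49324416 (adjusted p = 0.0216). That call was lost without the first or the third G1 or the first or the second G2 library. MLXIP, a glucose-responsive transcription factor, had 8.24%, 8.81% and 9.73% of reads in G1 and 2.03%, 0.380% and 0.254% in G2 in a short upstream region at chr12:122134143-122134156 (adjusted p = 0.0149). The MLXIP call was lost without the first or the third G1 or the second or the third G2 library. In these 3 genes no G1 library overlapped a G2 library, but they were picked by their small p, so nothing is read from that.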

How the data were processed

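The files were per-library SLAM-seq tables over 68625 annotated 3′ end regions (median length 148 bases, 19531 gene names, hg38, Ensembl release 90). Per the submitters' processing notes they were made with slamdunk 0.2.4. The deposited counts are reads, T>C reads and multimapped reads per region, as the authors' pipeline wrote them. The deposited CPM column and the deposited conversion rate, a fraction, were not tested. No label or file header records further steps, and 10.9 to 12.1% of reads were multimapped.

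Counts were summed by gene name in each library, and CPM values in the text were computed from these sums. Tests used edgeR 4.0.16 (R 4.3.3): TMM factors, filterByExpr (count minimum 10, total minimum 15), a quasi-likelihood fit over the 12 alkylated libraries, which share 1 estimate of the spread, and the contrast of G1 minus G2. T>C counts were scaled by T>C totals or, separately, by all reads. The labelled share was tested as an interaction of T>C against other reads, and region use with diffSpliceDGE. The SE is the log2 difference divided by the square root of F. DESeq2 1.42.0, other scalings, filters, library sets and left-out libraries were alternatives. The scripts were tested on simulated data.

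The genes named were 15 set by name, in each list up to 4 with the smallest p at steady state and in new RNA, in each test up to 8 each way with the largest difference among called genes with at least 20 counts in the higher phase and no overlap of libraries, and the 6 genes with the smallest p for region use; CCNB2 lies outside this rule and was chosen after its values were seen. The members and lists were chosen with earlier results of these data known. Promoters came from RefSeq (GRCh38.p14).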

Additional observations from a re-analysis of the deposited data

How the results depend on the processing

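Steady-state calls ranged from 2199 to 2615 when single libraries were left out and from 2734 to 3161 under the other alternatives run, against 2906. New RNA per T>C total, with 837 calls, gave 542 to 832 without single libraries (203 to 370 higher in G1 and 332 to 462 higher in G2) and 1185 with DESeq2, of which 529 were higher in G1. The labelled share gave 643 to 934 calls without single libraries (283 to 472 toward G1). With both kinds of reads scaled by total reads it gave 7230, 7216 toward G1 and 14 toward G2, since that scale keeps the overall difference in label; CCNB1 then stood at 0.00 and RPS24 at 0.98, both of them below 0 relative to the bulk. Region use gave 0 to 18 calls without single libraries, and 13 with only the 6 G1 and G2 libraries. The library-level differences kept their direction in the alternatives run. Same-numbered deviations of G1 and G2 libraries correlated at 0.014, 0.011 and 0.029 at steady state and at 0.021, 0.065 and 0.039 in new RNA. Differently numbered ones correlated at -0.03 to 0.015 and at -0.052 to 0.025. Such small values do not settle whether replicate numbers pair the libraries. With a replicate block the calls were 3041 at steady state, 853 in new RNA per T>C total, 6213 by all reads, 1025 for the labelled share and 13 for region use. Fewer T>C reads in G2 limit the precision for low genes there, and CPM levels carry no absolute amount of RNA.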
